A study of Homo sapiens with 9 samples.

Results

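A set of 10 long non-coding RNAs (lncRNAs) that have been linked to cancer, among 60642 gene names in the count table, were followed in SNU-398 cells that overexpressed an isoform of EMX1. They were the rows named MALAT1, NEAT1, MEG3, PVT1, GAS5, HULC, HOTTIP, HOTAIR, TUG1 and UCA1, taken from both tables by gene name. SNU-398 is a mesenchymal-like hepatocellular carcinoma (HCC) cell line, and EMX1 is a homeobox transcription factor. All 9 libraries came from wild type SNU-398 cells grown in RPMI1640 with fetal bovine serum, infected with lentivirus and selected with puromycin. The 3 libraries of the vector control, which the labels call the overexpression control, carried no EMX1 construct. The 3 EMX1-FL libraries carried the full-length isoform, and the 3 EMX1-X1 libraries carried the isoform with the alternative terminal exon. The 2 proteins differ at the C-terminal end, where the homeodomain lies, and the comparisons ask what each isoform does to the transcriptome. The labels do not say whether libraries of a group came from separate infections or cultures, so the p-values measure the spread between these libraries only.

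An lncRNA is transcribed and processed much like an mRNA but encodes no protein, and many of them act in the nucleus. MALAT1 sits in nuclear speckles with splicing factors, NEAT1 is the scaffold of paraspeckles, and HOTAIR and HOTTIP are transcribed from HOX clusters and have been tied to chromatin regulation. In liver cancer, HULC, UCA1, PVT1, HOTAIR and HOTTIP are mostly described as tumor-promoting, while MEG3, an imprinted gene, and GAS5, the host of a group of small nucleolar RNAs, are mostly described as growth-restraining.

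Libraries held 21562703 to 25197970 read pairs on genes, and 18574 genes, among them 9 of the 10 lncRNAs, passed the filter on low counts. EMX1 was at 9.34 to 12.9 CPM (counts per 1000000 counted read pairs, on TMM-normalized library sizes) in the vector control, 135 to 251 in EMX1-FL cells and 145 to 294 in EMX1-X1 cells, so every library lay on the side its label gives, although counts per gene do not tell the isoforms apart. Of the 4 mesenchymal markers, VIM (979 to 1553 CPM), FN1 (161 to 277 CPM) and CDH2 (11.8 to 21.8 CPM) were present in all libraries. The remaining one, ZEB1, was low, at 0.536 to 2.95 CPM. Of the 4 epithelial markers KRT8 was at 0.083 CPM at most and KRT18 at 0. EPCAM (2.68 to 5.60 CPM) and CDH1 (1.69 to 3.92 CPM) were detected in all libraries. The hepatocyte markers were close to absent: the 9 listed summed to between 0.567 and 2.68 CPM, most of it ALB. The 6 leukocyte and endothelial markers summed to at most 0.540 CPM. The libraries also differed in base composition. Their GC index, the median log2 deviation of genes with at least 60% GC minus that of genes with at most 40% GC, parted vector control 3, EMX1-FL 1, EMX1-X1 2 and EMX1-X1 3 (0.37 to 0.97) from the other 5 libraries (-0.89 to -0.36), with a gap of 0.74. The 2 sets come from the counts themselves and are no experimental groups, and all 3 groups had members in both. In bulk RNA, fewer cells expressing a gene and less RNA per cell cannot be told apart.

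EMX1 belongs to the homeodomain factors, which as a class recognise the motif TAATTA, built around the core TAAT. RefSeq promoter windows (GRCh38.p14, 250 bases before to 50 after the start) were matched by symbol for 5 of the 10 lncRNAs, namely GAS5, HOTTIP, MALAT1, MEG3 and TUG1, in 8 windows. None of the 8 held TAATTA, which reads the same on both strands, and 4.84% of all 35116 windows held it. Shown here are the window of MEG3, the lncRNA with the largest fold change against the vector control, and that of GAS5, which had the most copies of the 4-base core. Capitals mark TAAT or its reverse complement ATTA, and 50.2% of all windows held at least 1 of these. The MEG3 window lies at chr14:100825858-100826157 on the plus strand and holds no core, so that it has no capitals, and the GAS5 window lies at chr1:173868996-173869295 on the minus strand and holds 4.
MEG3: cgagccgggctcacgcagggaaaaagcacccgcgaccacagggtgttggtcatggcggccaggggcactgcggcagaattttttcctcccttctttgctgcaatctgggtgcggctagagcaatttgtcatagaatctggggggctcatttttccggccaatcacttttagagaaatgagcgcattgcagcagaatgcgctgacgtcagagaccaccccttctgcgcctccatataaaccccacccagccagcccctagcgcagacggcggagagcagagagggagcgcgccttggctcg
GAS5: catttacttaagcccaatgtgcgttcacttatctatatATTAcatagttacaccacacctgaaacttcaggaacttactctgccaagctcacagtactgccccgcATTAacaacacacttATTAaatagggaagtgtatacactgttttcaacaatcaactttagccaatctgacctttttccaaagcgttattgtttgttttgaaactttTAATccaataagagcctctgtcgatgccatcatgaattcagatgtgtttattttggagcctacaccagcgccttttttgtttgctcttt
The other MEG3 windows start a few bases further on and held no core either. HOTTIP and TUG1 had none, and MALAT1 had 1 in the second of its 2 windows. The GC content of the windows was 59.0% for MEG3 and 37.7% for GAS5, against a median of 58.7% over all windows. A match or its absence describes the letters of the window only. Sequence further upstream, where the study places the site of EMX1-FL in the EGFR promoter, was not searched. The GAS5 window lies wholly outside the counted GAS5 row, which on the minus strand begins at 173868882.

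Per length, GAS5 was the most abundant of the 10 in the vector control, at 378 ± 20.5 TPM (SD, n = 3). MALAT1 (105 ± 48.0 TPM, n = 3), TUG1 (96.8 ± 21.4 TPM, n = 3) and NEAT1 (77.1 ± 23.5 TPM, n = 3) followed, and neighbours in this order overlapped in their libraries. HOTAIR was at 13.5 ± 3.12 TPM and PVT1 at 7.02 ± 1.46 TPM, apart from each other and from those above. HOTTIP (0.284 ± 0.052 TPM), MEG3 (0.176 ± 0.069 TPM) and HULC (0.166 ± 0.016 TPM) were at a low level, where HOTTIP overlapped with MEG3 and MEG3 with HULC. UCA1 was last, with 2 counts in each of 3 libraries, vector control 1, EMX1-FL 1 and EMX1-X1 3, and 0 in the other 6. In the 6 libraries at 0, a count of 0 allows up to 3 counts, 0.124 to 0.139 CPM, and with 6 counts over all libraries UCA1 did not pass the filter and was not tested. Such limits cover counting error only.

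MEG3 was the only one of the 9 tested lncRNAs that passed the threshold for DEGs (unadjusted p under 0.05 and absolute log2 fold change no smaller than 1), and it passed in EMX1-X1 cells. Its counts lie on chromosome 14 from 100779410 to 100861031, plus strand, in 7 merged exons. MEG3 was at 1.07, 1.61 and 0.783 CPM in vector control 1 to 3, on 25, 37 and 19 counts. It was at 2.66, 1.85 and 1.94 CPM in EMX1-FL 1 to 3, on 60, 44 and 42 counts, and at 2.70, 2.41 and 2.26 CPM in EMX1-X1 1 to 3, on 65, 58 and 56 counts. All 6 overexpression libraries lay above the 3 vector libraries, and the EMX1-FL and EMX1-X1 libraries overlapped. EMX1-X1 cells held 2.13 times the MEG3 of the vector control (log2FC, the log2 fold change, of 1.09, standard error 0.33, 95% interval 0.36 to 1.81, unadjusted p = 0.00683, adjusted p = 0.487, edgeR's quasi-likelihood test, with p adjusted by Benjamini-Hochberg over all 18574 genes). EMX1-FL cells held 1.86 times that level (log2FC 0.90, standard error 0.33, 95% interval 0.17 to 1.63, unadjusted p = 0.0204, adjusted p = 0.698, same test). The 2 comparisons share the vector libraries. The 2-sided exact permutation test gave p = 0.1 in both, the smallest value possible with 3 libraries a group. Between the isoforms the log2FC was -0.19 (95% interval -0.89 to 0.51, unadjusted p = 0.56, edgeR), an interval that leaves room for a difference either way.

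MEG3 was higher against the vector control within both sets of libraries. Among the 5 with the lower GC index, mean log2 CPM differed from the vector control by 0.50 in EMX1-FL cells and by 0.99 in the single EMX1-X1 library, and among the 4 with the higher GC index by 1.66 and 1.48, each against the single vector library there. The call in EMX1-X1 cells rested on a value near the threshold: it was lost with a GC offset (log2FC 0.92, unadjusted p = 0.0135 in edgeR), with the offset and the replicate block (0.94), with limma on TPM, without vector control replicate 3 (0.86) and without EMX1-X1 replicate 1 (0.998). In EMX1-FL cells the call was gained without vector control replicate 2 (1.19). The unadjusted p was under 0.05 in all 24 fits for EMX1-X1 and in 19 of 24 for EMX1-FL, and the adjusted p was under 0.05 in 0 of 24 for either, with edgeR, DESeq2 and limma among the tools. Hepatocyte markers moved alongside: ALB passed the threshold in both comparisons (log2FC 1.46 and 1.11), and the sum of the 9 markers was 0.567 to 0.948 CPM in the vector control, 1.77 to 2.68 in EMX1-FL cells and 1.08 to 2.06 in EMX1-X1 cells. The mesenchymal factor ZEB1, at 1.47 CPM on average, passed in EMX1-FL cells (log2FC 1.22, adjusted p = 0.837 in edgeR). Its libraries there overlapped with the vector control (p = 0.3 in the exact permutation test). The ZEB1 difference in mean log2 CPM was 1.37 among the libraries of lower GC index and 0.27 among those of higher GC index. FN1 (0.60 and 0.55) and CDH2 (0.58 and 0.48) had an unadjusted p under 0.05 in both comparisons in edgeR. Of all genes, 5.80% and 8.11% did. CDH2 in EMX1-FL cells overlapped with the vector control. Its difference there was 0.87 among the libraries of lower GC index and -0.059 among those of higher GC index. For FN1 these values were 0.71 and 0.38. VIM, the most abundant of the 4 mesenchymal markers, had 0.077 and -0.23. The epithelial marker CDH1 had an unadjusted p under 0.05 in EMX1-X1 cells (0.75). TTR and FGB, which define hepatocytes, were at 0 in every library, and the part of ALB-expressing cells in the MEG3 values was not tested.

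Of the tumor-promoting lncRNAs, PVT1, a neighbour of MYC on chromosome 8 that hosts several microRNAs, was at 57.6, 47.7 and 43.4 CPM in vector control 1 to 3. It was at 47.1, 43.5 and 47.2 CPM in EMX1-FL 1 to 3 and at 56.0, 62.7 and 60.2 CPM in EMX1-X1 1 to 3. Every EMX1-X1 library was above every EMX1-FL library, while the range of the vector libraries held that of EMX1-FL and overlapped with that of EMX1-X1. PVT1 was lower in EMX1-FL than in EMX1-X1 cells by a log2FC of -0.38 (standard error 0.17, 95% interval -0.74 to -0.011), with an unadjusted p of 0.0443 and an adjusted p of 0.611 in edgeR, and so missed the fold change threshold for DEGs. Within the sets of libraries the difference in mean log2 CPM was -0.31 and -0.38. Against the vector control the log2FC of PVT1 was -0.11 in EMX1-FL cells (95% interval -0.48 to 0.26) and 0.27 in EMX1-X1 cells (95% interval -0.098 to 0.63).

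HOTAIR, transcribed antisense within the HOXC cluster on chromosome 12 (53962308 to 53974956, minus strand), was at 11.1, 10.6 and 7.95 CPM in vector control 1 to 3. It was at 12.7, 10.2 and 13.03 CPM in EMX1-FL 1 to 3, which overlapped with the vector control. In EMX1-X1 1 to 3 it was at 12.03, 15.4 and 13.1 CPM, each above every vector library. The log2FC in EMX1-X1 cells was 0.45 (standard error 0.21, 95% interval -0.0030 to 0.90, unadjusted p = 0.0513, adjusted p = 0.612, edgeR), and 8 of 24 fits gave an unadjusted p under 0.05. In EMX1-FL cells it was 0.27 (95% interval -0.18 to 0.72). Within the libraries of lower GC index the EMX1-X1 difference was 0.14 in mean log2 CPM, and within those of higher GC index it was 0.83 against vector control 3, the lowest HOTAIR library.

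HOTTIP, at the 5′ end of the HOXA cluster on chromosome 7 (27198575 to 27207259, plus strand), was close to the limit of counting, with 8 to 11 counts per vector library, 2 to 22 in EMX1-FL and 5 to 19 in EMX1-X1. Its levels were 0.471, 0.349 and 0.412 CPM in the vector control, 0.976, 0.421 and 0.092 CPM in EMX1-FL 1 to 3, and 0.624, 0.208 and 0.767 CPM in EMX1-X1 1 to 3. The overexpression libraries spread to both sides of the vector libraries, and the intervals of the log2FC were wide, -1.32 to 1.87 in EMX1-FL cells and -1.20 to 1.95 in EMX1-X1 cells. Of its exon bases, 20.1% are shared with other genes, HOXA13 on the opposite strand among them, and no strand setting is stated for the counting, so reads of overlapping genes cannot be told apart.

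The row named HULC cannot be read as HULC alone. HULC is a short liver cancer transcript, but in the count table its row covers 48395 exon bases in 78 merged exons over 858566 bases of chromosome 6, of which 2.44% lie inside the 1588 bases that RefSeq gives to HULC. For the other 9 lncRNAs this share was 84.6% to 99.9%. The row held 32 to 80 counts per library, 2.18 to 2.40 CPM in the vector control, 1.42 to 3.37 in EMX1-FL cells and 1.71 to 2.30 in EMX1-X1 cells, and the groups overlapped in each comparison.

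MALAT1, NEAT1 and TUG1 passed no threshold in any comparison. MALAT1 (chromosome 11, 65497688 to 65506516) was at 311, 334 and 135 CPM in vector control 1 to 3, at 190, 277 and 287 CPM in EMX1-FL 1 to 3, and at 220, 151 and 178 CPM in EMX1-X1 1 to 3. The highest vector library was 2.48 times the lowest, and the groups overlapped. Its log2FC was -0.51 in EMX1-X1 cells (standard error 0.30, 95% interval -1.17 to 0.15, unadjusted p = 0.12, edgeR) and -0.049 in EMX1-FL cells (95% interval -0.71 to 0.61). Within the libraries of lower GC index the EMX1-X1 difference in mean log2 CPM was -0.55, and within those of higher GC index it was 0.28, the opposite direction. With the GC index as a covariate the EMX1-X1 value was -0.19 (standard error 0.20), and without vector control replicate 3, the library lowest in MALAT1, it was -0.83 with an unadjusted p of 0.00371 and an adjusted p of 0.617 in edgeR. Between the isoforms MALAT1 differed by a log2FC of 0.46 (95% interval -0.20 to 1.12), and by 0.091 with the covariate.

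TUG1, a lncRNA with a bidirectional promoter on chromosome 22 (30969245 to 30979395), was at 305, 303 and 225 CPM in vector control 1 to 3, at 219, 292 and 290 CPM in EMX1-FL 1 to 3, and at 280, 203 and 188 CPM in EMX1-X1 1 to 3. The groups overlapped, and every group held at least 1 library on each side of 250 CPM. The log2FC was -0.31 in EMX1-X1 cells (95% interval -0.76 to 0.13) and -0.057 in EMX1-FL cells (95% interval -0.50 to 0.39). With the GC index as a covariate the EMX1-X1 value was -0.12 (standard error 0.094), and between the isoforms it went from 0.26 to 0.0069. Without EMX1-X1 replicate 1, the highest of its group, TUG1 had -0.52 in EMX1-X1 cells (unadjusted p = 0.029, adjusted p = 0.246, edgeR) and 0.46 between the isoforms. The EMX1-X1 value over all 24 fits lay between -0.52 and -0.12, with an adjusted p of 0.246 or more.

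NEAT1 (chromosome 11, 65422774 to 65445540) was at 562, 572 and 349 CPM in vector control 1 to 3, at 713, 555 and 487 CPM in EMX1-FL 1 to 3, and at 555, 489 and 414 CPM in EMX1-X1 1 to 3. EMX1-FL 1 was the highest library and vector control 3 the lowest, although both belong to the set with the higher GC index. The log2FC was 0.24 in EMX1-FL cells (95% interval -0.23 to 0.72) and -0.025 in EMX1-X1 cells (95% interval -0.50 to 0.45). MALAT1 and the long form of NEAT1 lack a canonical poly(A) tail, and the sources do not say how RNA was selected for the libraries. RN7SL1, another RNA without such a tail, stood at 16.1 CPM in EMX1-FL 1 and at 0.171 to 1.20 CPM in the other 8 libraries (log2FC 3.45 in EMX1-FL cells), while 77 histone genes summed to 202 CPM in EMX1-FL 1 and 223 to 323 CPM in the others. The part of this in the NEAT1 value of EMX1-FL 1 was not tested. The log2FC of NEAT1 in EMX1-FL cells was 0.078 without EMX1-FL replicate 1 and 0.030 without vector control replicate 3.

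GAS5 (chromosome 1, 173858559 to 173868882, minus strand) was the steadiest of the 9 tested, with a highest library 1.24 times the lowest. It was at 498, 484 and 589 CPM in vector control 1 to 3, at 564, 568 and 595 CPM in EMX1-FL 1 to 3, and at 602, 542 and 595 CPM in EMX1-X1 1 to 3. In CPM, vector control 3 lay among the overexpression libraries, and vector control 1 and 2 lay below all of them. In TPM, all 3 vector libraries (356 to 397) lay below the EMX1-FL (427 to 476) and EMX1-X1 libraries (426 to 469). The share of all genes whose groups did not overlap was computed in CPM only. The log2FC was 0.14 in EMX1-FL cells (95% interval -0.17 to 0.44) and 0.15 in EMX1-X1 cells (95% interval -0.16 to 0.45), and both intervals lie well inside the fold change threshold. Limma on log2(TPM + 1) gave 0.24 and 0.25 (unadjusted p = 0.0818 and 0.0683). In that fit the median log2FC of all genes was itself above 0, at 0.095 and 0.089. With a GC offset the values were 0.031 and 0.23, and -0.20 between the isoforms against -0.011 in the reported fit, with an unadjusted p of 0.205 in edgeR.

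**Figure D1:**
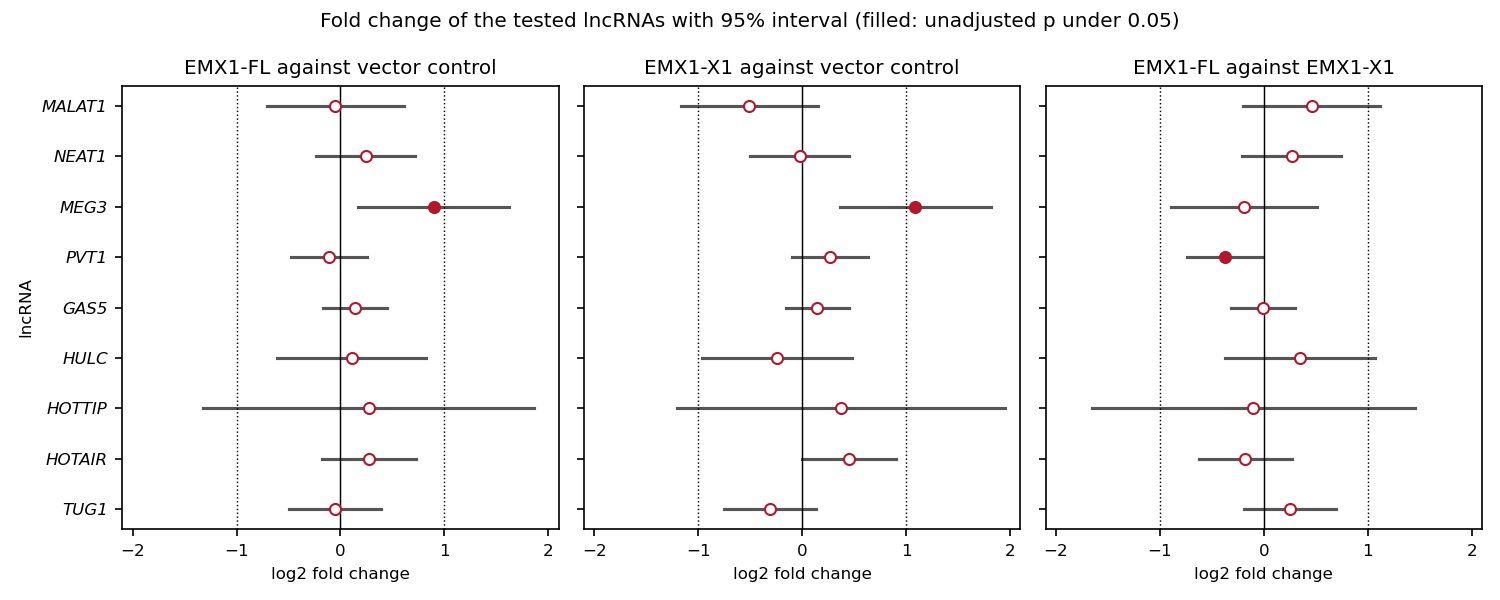
Log2 fold change (horizontal axis) of the 9 tested lncRNAs in the 3 comparisons, with 95% intervals, filled points for an unadjusted p under 0.05, and dotted lines at the threshold of 1 in either direction. The filled points are MEG3 against the vector control in both panels and PVT1 between the isoforms, and HOTTIP has the widest intervals.

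The calls among the lncRNAs are given beside those among all genes tested. Of the 9, 0 passed the threshold for DEGs in EMX1-FL cells, where 2.42% of all genes did, 1 (MEG3) passed in EMX1-X1 cells, where 2.50% did, and 0 passed between EMX1-FL and EMX1-X1, where 1.42% did. DESeq2 gave the same counts, and limma gave 0 in each comparison. With the p adjusted and the fold change kept, 0 of the lncRNAs passed in edgeR, DESeq2 and limma, against 0.0700%, 0.00538% and 0% of all genes in edgeR. At an unadjusted p under 0.05 alone, 1 of 9 passed in each comparison in edgeR, against 5.80%, 8.11% and 7.63% of all genes. The groups did not overlap for 1 of 9 (MEG3) in EMX1-FL cells, against 10.5% of all genes, for 2 of 9 (MEG3 and HOTAIR) in EMX1-X1 cells, against 14.7%, and for 1 of 9 (PVT1) between the isoforms, against 8.38%. The median log2FC of the 9 was 0.14, 0.15 and -0.011 in the 3 comparisons, and that of all genes was 0.045, 0.0098 and 0.021.

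The level of MALAT1 and TUG1 went with the base composition of the libraries. MALAT1 was at 135 to 190 CPM in the 4 libraries with the higher GC index and at 220 to 334 CPM in the other 5, and TUG1 was at 188 to 225 CPM and at 280 to 305 CPM, so that the sets did not overlap for either, as for 33.1% of all genes tested. The other 7 tested lncRNAs overlapped between the sets. With the group in the model, the log2 level fell by 0.46 (standard error 0.12) for MALAT1 and by 0.33 (standard error 0.058) for TUG1 per unit of GC index. In edgeR 2 of the 9, these 2, had an adjusted p under 0.05 for this coefficient, against 48.1% of all genes tested. The index was computed from the same counts, so these coefficients are a description.

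MALAT1 and TUG1 also have the lowest GC content of the 9 for which it could be given, 39.6% and 41.8%. Their coefficients lie inside the middle range of genes of like composition, whose median was -0.50 (quartiles -0.61 and -0.37) for the 2084 genes up to 40% GC and -0.31 (quartiles -0.43 and -0.16) for the 4042 genes between 40% and 45%. GAS5, with 43.5% GC, is of the second class too, but its coefficient was 0.0091 (standard error 0.060), outside those quartiles. The coefficients of NEAT1 (45.5% GC), PVT1 (51.1%), HOTAIR (51.7%) and MEG3 (54.96%) were between -0.020 and 0.037. HOTTIP had 0.55 with a standard error of 0.42 on its few counts, and the HULC row, for which no GC content could be given, had -0.29 (standard error 0.21).

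**Figure D2:**
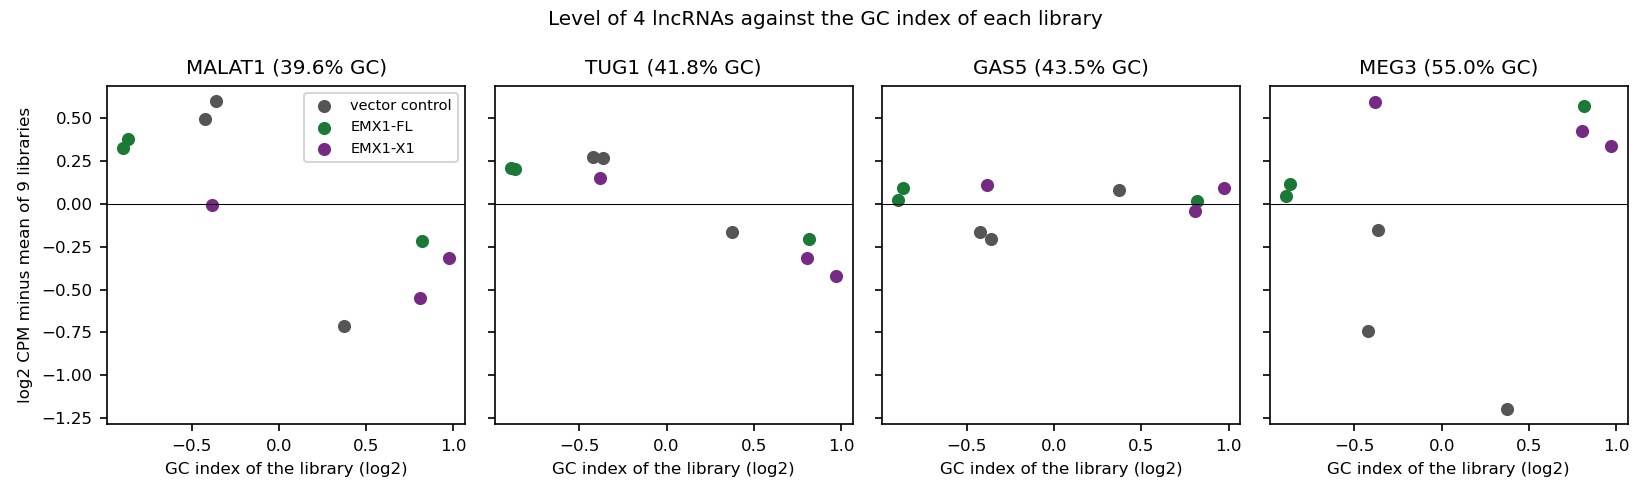
Log2 CPM of MALAT1, TUG1, GAS5 and MEG3 minus the mean of the 9 libraries (vertical axis) against the GC index of each library (horizontal axis, log2), coloured by group. MALAT1 and TUG1 are lower in the 4 libraries at the right, GAS5 stays near 0 across the axis, and the 3 vector control libraries of MEG3 lie below the other 6.

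Among genes next to the lncRNAs, 0 of the 10 tested passed the threshold for DEGs in any comparison in edgeR, against 2.42%, 2.50% and 1.42% of all genes. Only 1, HOXC12, had an unadjusted p under 0.05, between the isoforms, where 7.63% of all genes did. Their median log2FC was -0.043 in EMX1-FL cells, 0.20 in EMX1-X1 cells and -0.25 between the isoforms. MYC, the neighbour of PVT1, had a log2FC of -0.29 in EMX1-FL cells and 0.0025 in EMX1-X1 cells. HOXA13, beside HOTTIP, had 0.14 and 0.35. HOXC11, whose span overlaps that of HOTAIR on the opposite strand, and HOXC12, beside it, had -0.018 and -0.30 with EMX1-FL, 0.47 and 0.24 with EMX1-X1, and HOXC12 was lower in EMX1-FL than in EMX1-X1 cells by -0.55 (unadjusted p = 0.042, edgeR). HOXC10 had -0.048 and 0.16. LTBP3, near MALAT1, had -0.16 and 0.37, and FRMD8, near NEAT1, had -0.037 and 0.15. Among the 5 libraries of lower GC index the EMX1-X1 difference in mean log2 CPM had the opposite direction for LTBP3 (-0.15), FRMD8 (-0.067) and HOXC12 (-0.13), which have 64.7%, 63.4% and 58.7% GC. ZBTB37, which shares a locus with GAS5, had 0.034 and -0.22, and MORC2, which shares one with TUG1, had -0.055 and 0.12. Of the imprinted neighbours of MEG3, RTL1 and MEG9 had 0 counts in all libraries, DLK1 was at 0.416 CPM at most and MEG8 at 0.168 CPM at most.

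Of 12 paraspeckle proteins, 0 passed the threshold for DEGs in any comparison in edgeR, against 2.42%, 2.50% and 1.42% of all genes. The unadjusted p was under 0.05 for 0, 0 and 1 (RBM14, -0.50 between the isoforms), against 5.80%, 8.11% and 7.63% of all genes. Their median log2FC was -0.0091, -0.21 and 0.15 in the 3 comparisons. NONO, HNRNPK and HNRNPH3, the most abundant of them, had -0.17, -0.048 and 0.16 in EMX1-FL cells. Of 12 nuclear speckle proteins, 0 passed, and 0, 3 and 1 had an unadjusted p under 0.05, against 5.80%, 8.11% and 7.63% of all genes. The 3, all lower in EMX1-X1 cells, were the splicing factors SRSF1 (-0.71), SRSF2 (-0.45) and SRSF6 (-0.54). Their differences in mean log2 CPM were -0.36, -0.17 and -0.31 among the libraries of lower GC index, and -0.89, -0.71 and -0.68 among those of higher GC index. The median of the list was -0.087, -0.14 and 0.18. SRRM2, SRSF3 and PNN, the most abundant of the list, had 0.088, -0.13 and -0.083 in EMX1-X1 cells. Of 7 subunits and partners of PRC2, the complex tied to HOTAIR, 0 passed and 0 had an unadjusted p under 0.05, beside the same shares of all genes. EZH2, its catalytic subunit, had 0.10 and -0.12, RBBP4 had -0.087 and -0.21, RBBP7 had 0.0077 and -0.24, and the median of the list was 0.045, -0.19 and 0.22 in the 3 comparisons.

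Another 40 lncRNAs linked to cancer were in the count table, and 26 of them were tested. With EMX1-FL 1 of the 26 passed the threshold for DEGs, and with EMX1-X1 also 1, both higher. Between the isoforms 0 passed. Such calls made up 2.42%, 2.50% and 1.42% of all genes. An unadjusted p under 0.05 in edgeR, calls included, was reached by 3 with EMX1-FL and by 5 with EMX1-X1, all higher. The shares of all genes were 5.80% and 8.11%, and most of those genes were higher too. With EMX1-FL 738 were higher and 339 lower, and with EMX1-X1 1105 and 401. Of the 5 lncRNAs, FOXD2-AS1 and PCAT6 have 58.7% and 61.8% GC. Their EMX1-X1 differences in mean log2 CPM were 0.40 and 0.18 among the libraries of lower GC index. Among those of higher GC index they were 0.92 and 0.76. Between the isoforms 2 were higher and 2 lower at that p, beside a share of 7.63%. LUCAT1, a stress-responsive lncRNA, had 1.88 ± 0.52 CPM (SD, n = 3) in vector cells, 5.08 ± 1.48 in EMX1-FL cells and 3.63 ± 0.67 in EMX1-X1 cells, a log2FC of 1.44 in EMX1-FL cells (unadjusted p = 0.000577, adjusted p = 0.158, edgeR) and 0.95 in EMX1-X1 cells. LINC00511 was at 0.610 ± 0.065 CPM in the vector control and 1.51 ± 0.20 in EMX1-X1 cells, a log2FC of 1.30 (unadjusted p = 0.00459, edgeR). OIP5-AS1, NORAD and CRNDE, the most abundant of the list, had 0.11, 0.23 and 0.22 in EMX1-FL cells and lay between -0.096 and -0.025 in EMX1-X1 cells. The median log2FC of the 26 was 0.15 with EMX1-FL and 0.097 with EMX1-X1, beside the medians of all genes given above.

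Of 15 tested hosts of small nucleolar RNAs, the class of GAS5, 0 were DEGs in edgeR in either comparison with the vector control. Of all genes, 2.42% and 2.50% were. An unadjusted p under 0.05 was reached by 1 and 4 hosts, against 5.80% and 8.11% of all genes. The median log2FC of the 15 was 0.091 and 0.012. In EMX1-X1 cells 3 of these 4 were lower: SNHG14 (-0.76), SNHG16 (-0.60) and SNHG3 (-0.51). The other, SNHG7, which has 61.2% GC, was higher (0.79), but its libraries overlapped with the vector control. Its difference in mean log2 CPM was 0.43 among the libraries of lower GC index and 0.70 among those of higher GC index. Between the isoforms 1 of the 15 passed, where 1.42% of all genes did. This was SNHG15, which was close to the limit of counting. Its level was 0.128 ± 0.14 CPM in EMX1-FL and 0.522 ± 0.12 CPM in EMX1-X1 cells (SD, n = 3). At an unadjusted p under 0.05 in edgeR, SNHG15 was lower with EMX1-FL and 3 hosts were higher. The 3 were SNHG14 (0.85), SNHG16 (0.49) and SNHG3 (0.45). The share of all genes at that p was 7.63%. Groups without overlap were seen for 6 hosts, and the share of all genes there was 8.38%. SNHG1, SNHG16 and SNHG14 were the most abundant hosts, and SNHG1 had -0.10 in EMX1-FL cells and -0.17 in EMX1-X1 cells.

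Over the 9 libraries, the gene most like each lncRNA was named by Pearson correlation of log2 CPM among tested genes with a mean of at least 5 CPM, as a description, since the libraries share groups and base composition. TUG1 had the closest match, DDX17 (r = 0.99), then CNOT2 (0.99). PVT1 was followed by TNRC6C (0.96) and SHOX2 (0.95), MEG3 by CACNA1A (0.96) and EVA1C (0.91), and NEAT1 by AC126915.2 (0.95) and MAGOHB (0.94). HOTAIR was followed by YBX2 (0.95) and DNHD1 (0.94), MALAT1 by ZNF493 (0.94) and ARL14EP (0.93), and GAS5 by GPC4 (0.92) and FGFR2 (0.89). ZNF493 and ARL14EP have 38.4% and 35.3% GC, below MALAT1 itself. For the HULC row the nearest were DBR1 (0.94) and PLPP6 (0.93), and for HOTTIP ATP6V1G1 (0.92) and ACOT13 (0.92).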

How the data were processed

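RNA-seq libraries of SNU-398 cells (3 vector control, 3 EMX1-FL, 3 EMX1-X1) were assigned to groups from their titles. The authors deposited raw counts by gene name, which per the file header come from featureCounts 2.0.1 on exons of Ensembl release 99 (GRCh38), while the processing notes name featureCounts 2.0.6 and the methods RSEM. Reads had been trimmed with fastp and aligned with STAR. The authors also deposited log2(TPM + 1) values, which were checked by recomputing TPM from the counts and the deposited gene lengths, in bases. No strand option is in the header.

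Testing used edgeR 4.0.16 in R 4.3.3 (filterByExpr, TMM, quasi-likelihood test, 9 libraries, group as the only term, Benjamini-Hochberg over 18574 genes). The study calls DEGs at p under 0.05, read here as unadjusted, with an absolute log2 fold change (log2FC) of 1 or more. Precision depends on total counts, 21562703 to 25197970 per library, and on the spread between the 3 libraries of a group. Intervals use 11.77 degrees of freedom. GC content and gene types came from GENCODE 29 (95.6% of genes tested), promoters and gene spans from RefSeq. The rule named all 10 lncRNAs, all tested neighbours (1 of them counted but not reported here), the genes of the other lists that were called and the 3 most abundant of each list, and the 2 genes most like each lncRNA. Genes named for an unadjusted p alone were chosen after their values were seen. The members and lists were chosen with earlier results of these data known. Alternatives were DESeq2 1.42.0, limma 3.58.1 on TPM (pseudocounts of 1 and 0.1), upper-quartile or RLE factors, plain library sizes, a filter of 1 count in total, a filter of 10 counts per library, a fit of 6 libraries at a time, a block for the replicate number, a GC offset (loess, span 0.3), the GC index or the set of libraries as a covariate, the offset with the block, and each library left out. The reported edgeR fit, DESeq2 and limma on log2 CPM were tested on simulated counts, for EMX1-FL against the vector control. The simulated libraries had no GC shift, and the other alternatives were not simulated.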

Additional observations from a re-analysis of the deposited data

Results flagged for a closer look

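PVT1 differed between the 2 isoforms: it was lower in EMX1-FL than in EMX1-X1 cells by a log2FC of -0.38, the difference between the 2 effects against the shared vector control. Every EMX1-FL library was below every EMX1-X1 library (3 of 3 against 3 of 3). The unadjusted p was 0.0443 in edgeR and the adjusted p 0.611, so the difference did not survive the correction over all genes tested, and 7.63% of all genes tested had an unadjusted p under 0.05 in this comparison. Over 24 fits the adjusted p of PVT1 ranged from 0.137 to 1, and 12 of the 24 gave an unadjusted p under 0.05.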

How the results depend on the processing

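Of the alternatives other than leaving out a library, 349 of 368 values of single lncRNAs kept their direction and their side of the threshold. The count of lncRNAs called in EMX1-X1 cells, 1 in the reported fit, was 0 with limma on log2(TPM + 1), with limma on log2(TPM + 0.1), with the GC offset and with the GC offset and replicate block. Leaving out a library gave counts from 0 to 1 in EMX1-FL cells and from 0 to 1 in EMX1-X1 cells. MEG3 in EMX1-X1 cells had a log2FC of 0.25 with limma on log2(TPM + 1), where the pseudocount exceeds its level. Values near 0 changed sign, and the cause was not tested: MALAT1 in EMX1-FL cells had 0.13 in both limma fits, 0.012 with the replicate block and 0.017 with the set of libraries as a covariate, and TUG1 there had 0.041 in both limma fits. NEAT1 in EMX1-X1 cells had 0.10 in both limma fits, 0.037 with the GC offset, 0.059 with the GC offset and replicate block, and 0.037 with the set as a covariate. Between the isoforms, GAS5 had 0.0047 with upper-quartile factors, 0.0025 with at least 10 counts in every library and 0.0050 with the set as a covariate, and HOTTIP had 0.14 with the GC index as a covariate. Limma on log2(TPM + 0.1) placed the median of all genes at 0.11 against the vector control in both comparisons. Leaving out a library moved the log2FC in EMX1-FL cells from -0.37 to 0.16 for MALAT1, -0.21 to 0.0024 for PVT1, -0.21 to 0.39 for HULC, -0.64 to 0.75 for HOTTIP and -0.20 to 0.067 for TUG1. It moved NEAT1 in EMX1-X1 cells from -0.24 to 0.075, and between the isoforms GAS5 from -0.058 to 0.021 and HOTTIP from -1.004 to 0.38.

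Libraries with the same replicate number did not deviate together (mean correlation -0.14, 0.11 and -0.35 in the 3 comparisons, 5 of 18 best matches with the own number). With the replicate block the lncRNAs called stayed at 0, 1 and 0, and the genes called were 385, 407 and 208. The counts of all genes called, 450, 464 and 263 in the reported fit, were 142, 177 and 107 with limma on log2(TPM + 1), 947, 962 and 686 with no filter, and 217, 214 and 121 with at least 10 counts in every library. Between the isoforms DESeq2 called 407 and the GC offset with the block 153. Without EMX1-FL replicate 1 the calls were 676 in EMX1-FL cells and 1108 between the isoforms, without EMX1-X1 replicate 1 they were 906 in EMX1-X1 cells and 759 between the isoforms, and there 162 and 141 without EMX1-X1 replicate 2 and 3. For HOTTIP, MEG3, UCA1 and the HULC row, counts under 100 per library limit the precision. HOTTIP could not be tested with at least 10 counts in every library or, in EMX1-FL cells, in the fit of 6 libraries, the HULC row could not be tested with a GC offset, and UCA1 was tested by DESeq2 and without the filter only.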
